A study of Mus musculus with 24 samples.

Results

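Pituitary hormone genes were followed through 24 mouse brain libraries: growth hormone (Gh), prolactin (Prl), the 4 subunits of the glycoprotein hormones (Cga, Tshb, Fshb and Lhb), the transcription factor Pou1f1 and the receptor Ghrhr. They were taken by symbol, as the 8 rows of 46078 in the gene table whose Ensembl identifiers map to these names. The names themselves were chosen from levels in these data, where 1 library had a Gh value above 10000, so their levels are given as a description and carry no test. All mice were of strain C57BL/6N, untreated, and either wild type (WT) or Shank2 knock-out (KO), a gene for a postsynaptic scaffold protein. The 4 groups were P14 WT, P14 KO, P25 WT and P25 KO, where P14 and P25 are postnatal days 14 and 25, with 6 mice in each (n = 6). The labels mark 3 libraries of each group, replicates 4 to 6, as a second batch, and the other 3 carry no batch mark. They do not say which part of Shank2 was removed, and they give the tissue only as brain.

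The anterior pituitary lies below the hypothalamus, outside the brain itself, and each of its secretory cell types makes a large amount of 1 or a few peptide hormones. POU1F1 is the transcription factor of the lineage that makes growth hormone, prolactin and the thyrotropin beta subunit, and it acts on the promoters of those hormone genes and on its own. GHRHR is the receptor through which hypothalamic growth hormone-releasing hormone drives somatotropes, the growth hormone cells. CGA is the alpha subunit that thyrotropin, follitropin and lutropin share, and TSHB, FSHB and LHB are the beta subunits that tell the 3 hormones apart. Thyrotropin beta is also made in the pars tuberalis, a thin sheet of pituitary cells along the stalk.

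Shank2 itself had lowest, median and highest values of 3932, 7815 and 12778 in P14 WT against 1899, 3919 and 6458 in P14 KO, and of 6382, 8930 and 13358 in P25 WT against 2217, 4427 and 5153 in P25 KO, so the genotypes overlapped at P14 and not at P25. Library totals ran from 27552844 to 40787586 reads, and 24574 to 27475 genes had at least 1 read. Values are reads divided by a size factor for each library, called normalised reads below. Other libraries also stood apart: in P14 WT replicate 5, 1018 of 18267 genes that averaged 10 or more normalised reads lay at least 1 log2 unit above every other library, and 40 did in P25 WT replicate 6. The same count was 8 in P25 WT replicate 3, the library with the Gh value above 10000, and 0 to 6 in each of the others. Regional makeup also varied between libraries, with the cerebellar granule neuron gene Cbln3 at 18.3 to 61110 normalised reads.

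Growth hormone (Gh, ENSMUSG00000020713, minus strand of chr11:106300271-106301865 in GRCm38), which drives body growth, was the most abundant of the set. P25 WT replicate 3 held 81696 Gh reads, a value of 72845, and P25 KO replicate 2 came next with 53 reads and a value of 47.6. These are the values just inside and just outside the threshold of 10000, 1532-fold apart. In P25 WT the lowest, median and highest values were 0, 0 and 72845, and in P25 KO they were 0, 1.37 and 47.6. In P14 WT they were 0, 0 and 6.11, and all 6 P14 KO libraries were at 0. Thus 1 library held 99.9% of all Gh reads, 17 of the other 23 held none, and the remaining 6 shared 80 reads. Those 80 reads lay in P25 KO replicate 2 (53), P25 WT replicate 4 (12), P14 WT replicate 5 (7), P25 KO replicate 5 (4), P25 KO replicate 6 (3) and P14 WT replicate 3 (1).

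Prolactin (Prl, ENSMUSG00000021342, plus strand of chr13:27057570-27065205), the hormone of lactotropes, followed the same libraries. P25 WT replicate 3 held 4011 reads, a value of 3576, P25 KO replicate 2 held 2 reads, and the other 22 libraries held 0. The 2 libraries with Prl reads were the 2 highest for Gh. Gh reads outnumbered Prl reads 20.4 to 1 in P25 WT replicate 3 and 26.5 to 1 in P25 KO replicate 2, where the second ratio rests on 2 Prl reads. Per kilobase of exon, Gh stood 33.3-fold above Prl in P25 WT replicate 3.

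The alpha subunit gene Cga (ENSMUSG00000028298, plus strand of chr4:34893779-34907370) had 1244 reads in P25 WT replicate 3, a value of 1109. The next highest was P14 WT replicate 1 with 4 reads and a value of 4.48, and 19 of the other 23 libraries were at 0. Platr9, which shares 305 exon bases with Cga on the opposite strand, had 0 to 3 reads in each library. Follitropin beta (Fshb, ENSMUSG00000027120, minus strand of chr2:107056140-107059656) had 507 reads, a value of 452, in that library and none in the other 23, so its level there was at least 124-fold higher than in any of them, counting 3 reads per library as the limit that a count of 0 allows. Lutropin beta (Lhb, ENSMUSG00000100916, plus strand of chr7:45420820-45421897), the partner of CGA in the other gonadotropin, was at 0 in all 24 libraries, P25 WT replicate 3 included. A count of 0 allows up to 3 reads, or at most 3.64 normalised reads in a library, counting error only. Lhb shares 138 of its 678 exon bases with Ruvbl2 on the opposite strand, which had 759 to 1658 reads per library. The library kit does not mark strand, so reads over those shared bases could not be told apart.

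Ghrhr (ENSMUSG00000004654, plus strand of chr6:55376295-55388530) had 127 reads in P25 WT replicate 3, a value of 113, against a highest value of 5.24 (6 reads, P14 WT replicate 5) elsewhere. Of the other 23 libraries, 12 had none. Pou1f1 (ENSMUSG00000004842, plus strand of chr16:65520511-65535005) had 219 reads and a value of 195 there, 15.7-fold above the highest other library, P14 KO replicate 3 at 12.4. Unlike the hormone genes Gh, Prl, Cga and Fshb, it had reads in 21 of the other 23 libraries, at 1 to 11 reads, and P25 WT replicate 3 held 69.1% of all its reads. Gm49631, which shares 136 exon bases with Pou1f1 on the opposite strand, was not analysed here. In P14 WT the lowest, median and highest Pou1f1 values were 0, 5.85 and 7.27, in P14 KO 0, 6.43 and 12.4, in P25 WT 1, 2.49 and 195, and in P25 KO 0.86, 2.81 and 4.56. The 4 ranges overlapped.

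**Figure D1:**
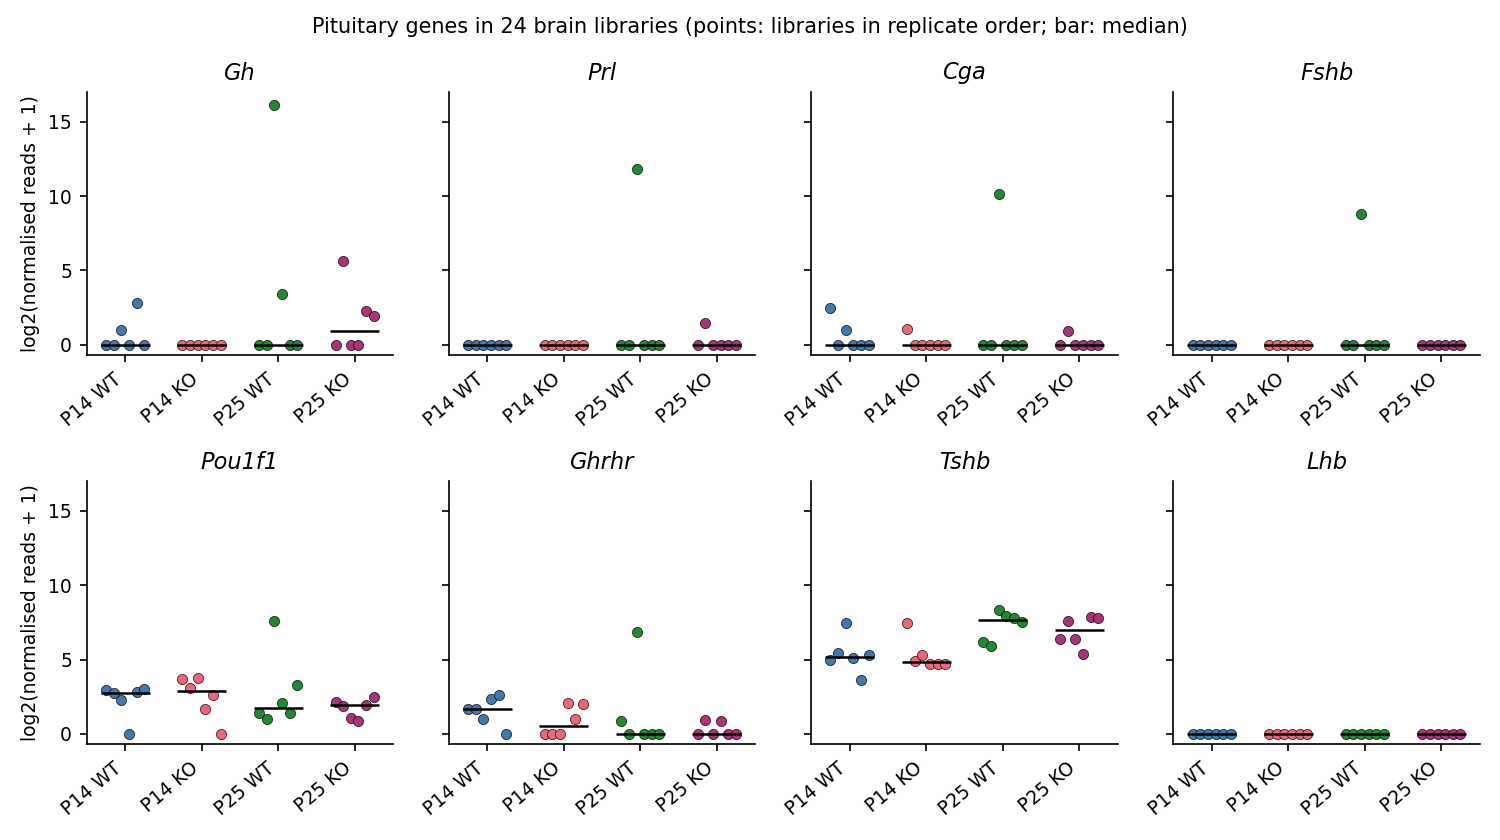
Normalised reads of the 8 pituitary genes on the log2(value + 1) scale (vertical axis) in the 6 libraries of each group (horizontal axis, points in replicate order, bar at the median). P25 WT replicate 3 stands alone for Gh, Prl, Cga, Fshb, Pou1f1 and Ghrhr, Tshb has reads in all 24 libraries, and Lhb is at 0 throughout.

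Because Prl and Pou1f1 stood out in the same library and POU1F1 is known to act on both genes, the bases before their transcription starts are printed, with those of Tshb, another known target that did not stand out in the same way, and of Fshb, which is made in a different lineage. Each is the 250 bases upstream of a start in RefSeq (GRCm38.p6), 5′ to 3′ on the gene's strand, with matches to ATGNATA or its reverse complement, a POU1F1 core, in capitals. The windows lie at chr13:27057320-27057569 for Prl, chr16:65520262-65520511 for the upstream start of Pou1f1, chr3:102782715-102782964 for Tshb and chr2:107059652-107059901 for Fshb.
Prl: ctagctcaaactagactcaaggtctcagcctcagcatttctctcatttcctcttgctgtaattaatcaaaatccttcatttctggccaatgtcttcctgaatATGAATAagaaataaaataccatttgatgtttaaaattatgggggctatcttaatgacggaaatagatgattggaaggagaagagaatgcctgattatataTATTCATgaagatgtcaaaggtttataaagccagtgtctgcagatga
Pou1f1: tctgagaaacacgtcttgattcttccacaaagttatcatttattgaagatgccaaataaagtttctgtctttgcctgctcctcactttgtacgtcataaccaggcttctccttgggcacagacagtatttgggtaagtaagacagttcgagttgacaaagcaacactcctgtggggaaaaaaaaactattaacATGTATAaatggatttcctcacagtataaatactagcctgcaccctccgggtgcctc
Tshb: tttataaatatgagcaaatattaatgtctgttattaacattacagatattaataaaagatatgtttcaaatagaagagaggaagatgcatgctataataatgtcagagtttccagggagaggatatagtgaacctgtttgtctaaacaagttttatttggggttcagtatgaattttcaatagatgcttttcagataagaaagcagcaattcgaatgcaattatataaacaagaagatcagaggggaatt
Fshb: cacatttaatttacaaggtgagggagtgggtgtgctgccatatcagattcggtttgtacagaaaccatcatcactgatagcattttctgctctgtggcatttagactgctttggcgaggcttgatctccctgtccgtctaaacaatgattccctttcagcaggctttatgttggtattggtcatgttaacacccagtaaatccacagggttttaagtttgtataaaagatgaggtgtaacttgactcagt
RefSeq entries were at hand for 6 of the 8 genes, all but Gh and Ghrhr.

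The Prl window held 2 matches to the core, at 148 to 142 bases before the start and, on the other strand, at 47 to 41 bases. The printed Pou1f1 window held 1, at 57 to 51 bases before the start, and it overlaps a TATAAA that begins 54 bases before the start. The windows of Tshb, Cga, Fshb and Lhb, and that of a second Pou1f1 start (chr16:65523059-65523308), held 0. Among 32851 RefSeq promoter windows of the same length, 7.92% held at least 1 match on either strand and 1.26% held 2 or more. A match to TATAAA, the core of the TATA box, that begins 20 to 35 bases before the start lay in 6 of 6 of these genes, against 1.84% of all promoter windows. The first count is of genes, which have 7 windows in all, and the second Pou1f1 window held no TATAAA. These matches describe letters, and no binding was measured.

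In P25 WT replicate 3 the 8 genes together took 0.245% of all reads, and Gh made 92.7% of that. Per kilobase of exon, a scale on which genes can be compared, Gh took 95.3% of the summed level of the 8 genes, Prl 2.87%, Cga 1.31%, Fshb 0.319%, Tshb 0.0784%, Pou1f1 0.0566% and Ghrhr 0.0366%. The order within that library was therefore Gh, Prl, Cga, Fshb, Tshb, Pou1f1 and Ghrhr, with Lhb not detected. In the other 23 libraries the composition was different. By reads, not per kilobase, Tshb made 39.4% to 99.2% of the set in each of them, against 0.403% in P25 WT replicate 3. Fewer pituitary cells in a sample and less hormone RNA per cell cannot be told apart in bulk RNA.

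The library was then read across all 18267 genes at or above that average, of which 6 belong to the set (Lhb and Ghrhr were too low). Only 8 genes, 0.0438%, lay at least 1 log2 unit above the highest of the other 23 libraries in P25 WT replicate 3. Of these, 5 were Gh (10.55 log2 units above), Prl (10.32), Fshb (8.82), Cga (7.66) and Pou1f1 (3.87), the genes whose level had chosen the library. Their highest values elsewhere were 47.6, 1.79, 0, 4.48 and 12.4, so they averaged 10 or more only through that library. Their place among the 8 was thus fixed by the choice of library and the filter. The other 3 were Pomc (7.03), the precursor of corticotropin and melanotropin, Oacyl (1.53) and Lhx3 (1.13), a LIM homeobox factor of early pituitary development. The next 12 were Esm1, Ucn, Prg4, Tph2, Esr2, Ly6g6f, Serpinb1a, Serpind1, Dlk1, Pln, Tnfaip6 and Sytl4, at 1.00 down to 0.52. Among them Tph2, the serotonin synthesis enzyme of raphe neurons, was at 1889 against 1115 in P25 KO replicate 2, and Dlk1 was at 3184 against 2141 in P25 KO replicate 1.

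Genes of the pituitary axis that are not in the set were taken as 8 lists of 68 genes in all, 67 of them with a row in the table. In P25 WT replicate 3, 9 of the 67 (13.4%) had their highest value of the 24 libraries, beside 2.01% of the 35194 genes with any read, and 5 (7.46%) lay at least 1 log2 unit above all others, beside 0.111%. Of the 52 axis genes that averaged 10 or more, 5 were highest there (9.62%, beside 1.5% of all such genes) and 2 lay at least 1 log2 unit above, Pomc and Lhx3 (3.85%, beside 0.0438%). With P25 WT replicate 3 left out, 51 axis genes reached that average, so at least 1 of the 52 was admitted through its level in that library. Lhx3 had a median of 4.08 in the other 23 libraries. The shares of the 52 are therefore a description only, while those of the 67 rest on no such average. Pomc had 14726 reads there, a value of 13130.5 against 27.2 to 99.7 elsewhere. Of the 7 genes of the POMC-cell list, 2 were highest there, Pomc and its activator Tbx19, at 94.5 against at most 8.48. Among 9 receptors only Gnrhr, by which gonadotropes sense gonadotropin-releasing hormone, was highest, at 42.8 against at most 4.34. Of 18 transcription factors 5 were highest, among them Tbx19 and the eye and pituitary homeobox gene Six6, at 59.7 against at most 15.2. Lhx3 was at 66.0 against at most 29.7.

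Other pituitary genes did not single the library out. Pitx1 was at 69.5 there but at 480 in P14 WT replicate 5, and Pax7 at 201 but at 204 in P25 KO replicate 1. Of the posterior pituitary list, Scn7a was highest there (295 against 220), and the hormones Oxt and Avp were at 10.7 and 11.6, below the 199 and 431 of P14 WT replicate 1. The pars tuberalis genes Mtnr1a and Nmu had 3 reads each. The secretory granule list had none of its 10 genes highest there, none of the 8 measured hypothalamic releasing and inhibiting factors was, and among 12 hormone targets only Dio3 was (166 against 151).

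**Figure D2:**
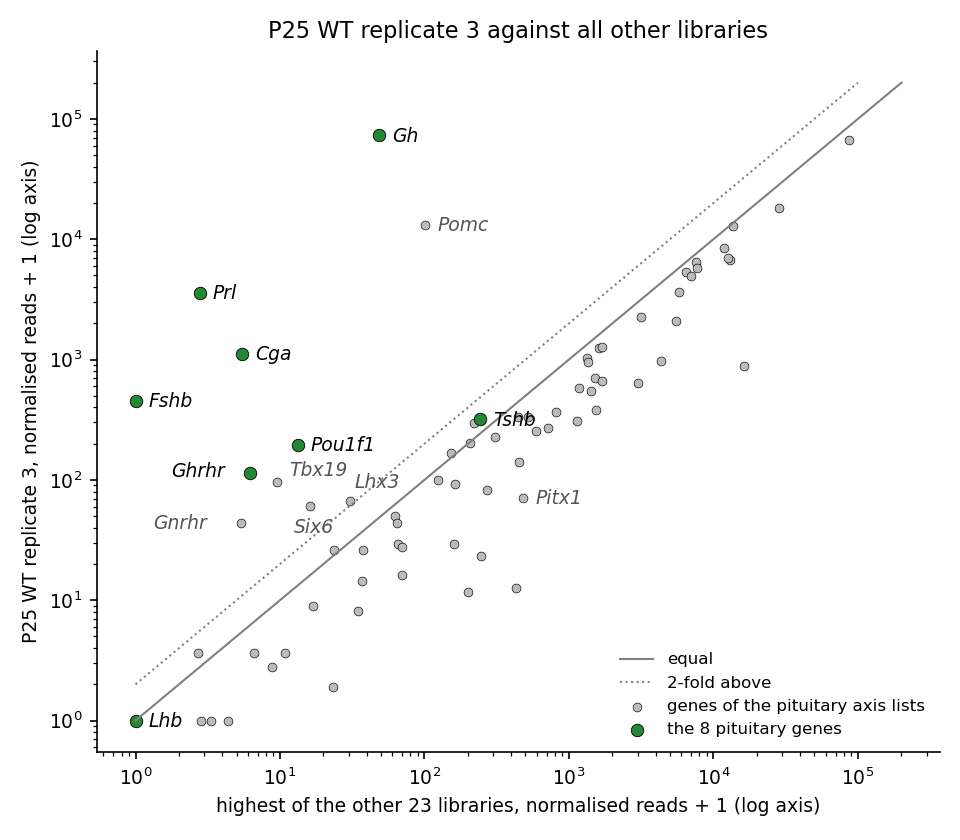
Each point is a gene, with its value in P25 WT replicate 3 (vertical log axis, normalised reads + 1) against its highest value in the other 23 libraries (horizontal log axis, same unit), for the 8 pituitary genes and the 67 axis genes. Gh, Prl, Cga, Fshb, Pou1f1, Ghrhr and 5 axis genes (Pomc, Tbx19, Gnrhr, Six6, Lhx3) lie above the dotted 2-fold line, while Tshb is close to the line of equal values.

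Of 11 anterior pituitary markers (the 8 genes with Pomc, Pitx1 and Lhx3), P25 WT replicate 3 had reads for 10, all but Lhb. Since levels of the 8 genes chose the library, only the other 3 markers are apart from that choice. Their summed value was 13266 there, against 46.9 to 524 in P14 WT, 32.7 to 79.2 in P14 KO, 37.2 to 109 in P25 KO and 39.2 to 60.3 in the other 5 libraries of P25 WT, and Pomc made nearly all of it. A list of 13 hypothalamic markers was also highest there, at 13727, with Hcrt and Rax at 0. Without Pomc, which both lists hold, the 12 others summed to 597, the 12th highest of the 24 libraries, against 65.7 to 2470 elsewhere.

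Tshb (ENSMUSG00000027857, minus strand of chr3:102775465-102782718) had a different pattern from the rest of the set. It had 13 to 355 reads in every library, and P25 WT replicate 3, with 316.5 normalised reads, was only 1.30-fold above P25 WT replicate 4 at 243. In P14 WT the lowest, median and highest values were 11.4, 36 and 176, in P14 KO 25.2, 27.4 and 171, in P25 WT 59.7, 201 and 317, and in P25 KO 41.1, 136 and 228. The P25 medians lay above the P14 medians, the ranges of all 4 groups overlapped, and the 2 highest P14 libraries (WT replicate 3 and KO replicate 1) reached P25 levels.

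The Tshb gene lies wholly within Tspan2 (chr3:102734529-102801513, plus strand), a tetraspanin gene of oligodendrocytes and some neurons, and shares 0 exon bases with it, so it sits in intronic sequence of that gene. With a kit that does not mark strand, reads from unspliced Tspan2 RNA over the Tshb exons and reads of Tshb itself cannot be told apart. Tspan2 had 1576 to 18243 reads per library, and Tshb reads amounted to 0.590% to 4.63% of them over the other 23 libraries (median 1.05%). The share was 2.8% in P25 WT replicate 3 and 2.66% to 4.63% in P25 WT replicates 4, 5 and 6 and P25 KO replicates 5 and 6. Those 5 libraries had Cbln3 values of 54064 to 61110. In P25 KO replicate 2, with a Cbln3 value of 25147.5, the share was 1.35%. The 2 high P14 libraries, WT replicate 3 and KO replicate 1, had Cbln3 values of 6083 and 10664, against 18.3 to 51.8 in the other 10 P14 libraries, and also the highest Tspan2 values of their groups, 17973 and 14183. Their shares were 0.981% and 1.21%.

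Across the 24 libraries, Pearson's r of Tshb on the log2(value + 1) scale was 0.94 with Kcna1, 0.94 with Pvalb, 0.87 with Cbln3 and 0.76 with Tspan2. It was 0.34 with Cga, its partner subunit, and 0.29 with Pou1f1. These libraries share differences in regional makeup and 1 extreme library, so the coefficients are descriptions only. Without P25 WT replicate 3 (n = 23) the genes most like Tshb were Sept4 (0.98), Specc1 (0.97) and Esrrb (0.97), followed by Gm42492, Kcna1, Kndc1, Pvalb, Flt3, Gm43032 and Klhl4 (0.96 to 0.97). Tspan2 ranked 1572 (0.75), and with Cga the coefficient was 0.08.

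**Figure D3:**
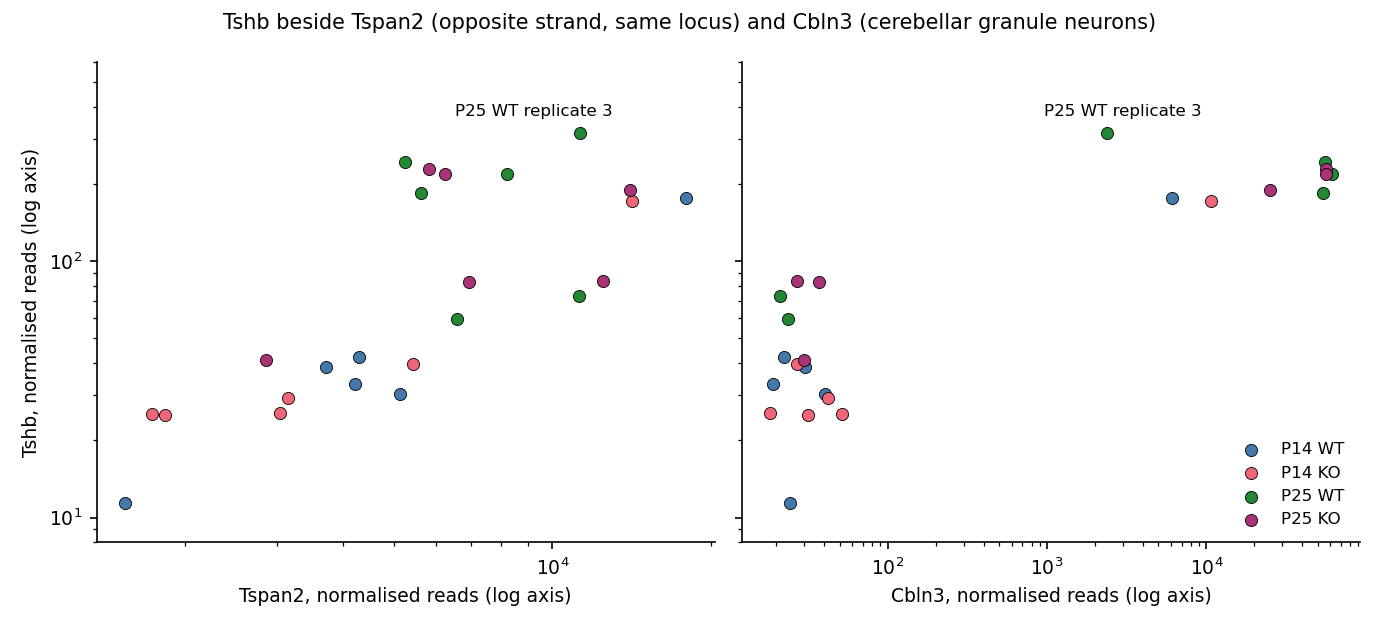
Tshb (vertical log axis, normalised reads) in each of the 24 libraries against Tspan2 (left, horizontal log axis, normalised reads) and against the cerebellar granule neuron gene Cbln3 (right, same unit), with a colour for each group. The 8 libraries with the highest Cbln3 have Tshb values of 171 to 243, and P25 WT replicate 3 has the highest Tshb at a Cbln3 value of 2373.

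The mean log2 level of the 8 genes was also compared with every other gene. Over 24 libraries Pomc was most like it (Pearson's r 0.94), and the next 9 were Sytl4 (0.63), Qdpr, Gch1, Tph2, Ttn, Hcn2, Slco3a1, Arl10 and Gm38246 (0.54 to 0.61). Without P25 WT replicate 3 (n = 23), r with Pomc was -0.07, and the first 10 genes were Pmp22 (0.85), Lpo, Nqo2, Slc25a5, Rmi1, Chchd3, Glo1, Hibch, Gng11 and Sparc (0.79 to 0.81). Among the members, Gh, Prl, Cga and Fshb had pairwise coefficients of 0.89 to 0.99 over 24 libraries. Without that library Gh had 0.71 with Prl, which then had reads in 1 library only, and 0.11 with Cga, Prl and Cga had 0.25, and Fshb, at 0 in the other 23, had no coefficient.

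Differences of the pituitary genes between genotypes at P25 turned on 1 library. At P25, KO minus WT was -1.63 (SE 2.03) for Gh, -1.72 (SE 1.38) for Prl, -1.53 (SE 1.22) for Cga, -1.47 (SE 1.04) for Fshb, -1.06 (SE 0.90) for Pou1f1 and -0.98 (SE 0.87) for Ghrhr, on the log2(value + 1) scale with the batch in the model. Without P25 WT replicate 3 the same differences were 0.97 (SE 0.93), 0.22 (SE 0.19), 0.14 (SE 0.33), 0 for Fshb, -0.05 (SE 0.58) and 0.11 (SE 0.43), so the sign turned for Gh, Prl, Cga and Ghrhr. Within batches the Gh difference was -3.52 (SE 4.04) in the first, which holds that library, and 0.25 (SE 1.16) in the second. In the second batch Prl, Cga and Fshb were at 0 in both genotypes, Pou1f1 differed by -0.48 (SE 1.02) and Ghrhr by 0.30 (SE 0.67). For Tshb the difference was -0.38 (SE 0.57) with the library and -0.09 (SE 0.58) without it. Models of the reads rather than their logarithms gave larger differences with all 24 libraries, for Gh -9.72 by edgeR's quasi-likelihood method and -5.59 by DESeq2.

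**Figure D4:**
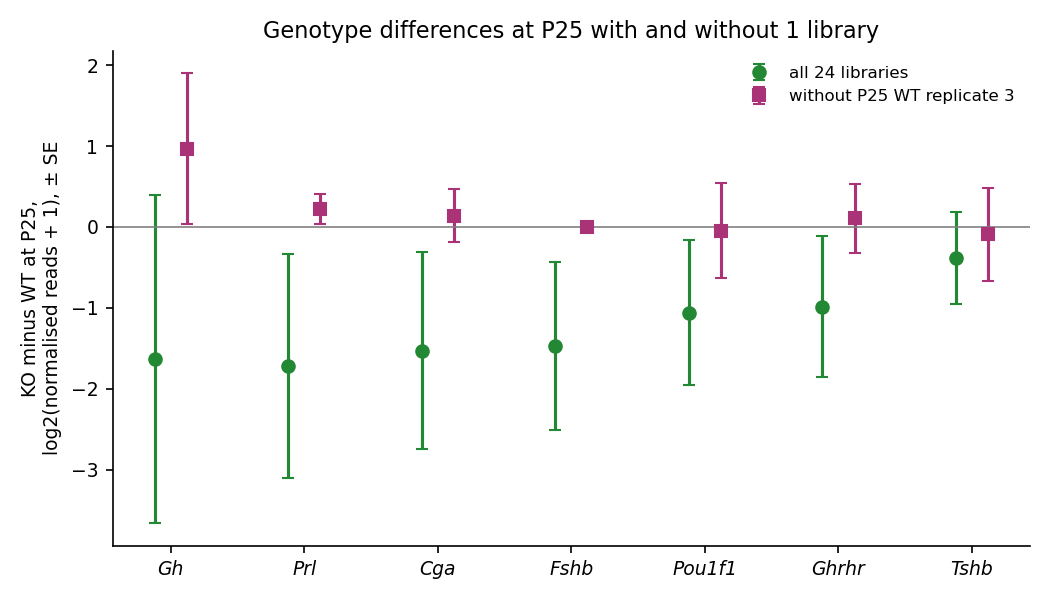
KO minus WT at P25 on the log2(value + 1) scale (vertical axis, bars are ± SE of the fit with batch) for the 7 detected genes, with all 24 libraries (circles) and without P25 WT replicate 3 (squares). The negative differences of Gh, Prl, Cga, Fshb, Pou1f1 and Ghrhr move to between -0.05 and 0.97 when that library is left out.

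At P14, KO minus WT was -0.64 for Gh (SE 0.88), 0 for Prl and Fshb, -0.40 for Cga (SE 0.31), -0.01 for Tshb (SE 0.55), 0.17 for Pou1f1 (SE 0.55) and -0.70 for Ghrhr (SE 0.41). These SEs are from the fit without P25 WT replicate 3, whose spread would otherwise enter them. The Ghrhr values behind the last difference were 0, 2.24 and 5.24 (lowest, median, highest) in WT and 0, 0.53 and 3.31 in KO, at no more than 6 reads per library. The ranges overlapped.

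Between the ages, P25 minus P14 was 1.77 for Tshb (SE 0.40) and 1.63 (SE 0.40) without P25 WT replicate 3. Within batches it was 0.87 (SE 0.69) in the first and 2.68 (SE 0.49) in the second. A list of 6 cerebellar markers, all with reads in that library, moved with it: their summed values ran from 984 to 26051 in P14 WT, 1527 to 37520 in P14 KO, 6529 to 138753 in P25 WT and 2894 to 134323 in P25 KO, and their part in the Tshb difference was not tested. The Gh difference was 2.13 (SE 1.44) with P25 WT replicate 3 and 0.83 (SE 0.64) without it. For Pou1f1 it was -0.12 (SE 0.63) and -0.63 (SE 0.40), and for Ghrhr -0.41 (SE 0.61) and -0.96 (SE 0.30).

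The rest of the axis was tested across the whole table with limma on log2(value + 1) and Benjamini-Hochberg adjustment, where 52 of the 67 axis genes reached a mean of 10. For KO against WT, 0 of 52 passed at P14 and 0 of 52 at P25, and 0% of all genes passed at either age (0 of 18267). Shank2, the knocked-out gene, was among those tested and did not pass by limma either. Its P25 values did not overlap, at most 5153 in KO and at least 6382 in WT. A count of 0 therefore does not show that the axis was unchanged by genotype. At an unadjusted p under 0.05, limma had 554 genes at P14 and 98 at P25, of which 1 axis gene each: Chga, a granule protein, at -0.37 (SE 0.15, adjusted p = 1.00 by limma) at P14, lower than the WT median in 6 of 6 KO libraries, and Crh, corticotropin-releasing hormone, at 1.70 (SE 0.79, adjusted p = 1 by limma) at P25, higher in 4 of 6. With edgeR 0 genes passed at either age (870 and 165 at an unadjusted p under 0.05), and with DESeq2 1 and 4 passed (888 and 391), none of them axis genes. The median log2 difference of the 52 genes was -0.07 at P14 and 0.13 at P25. The change of the KO effect between the ages passed for 0 of 52 axis genes and 0% of all genes, with 189 at an unadjusted p under 0.05, by edgeR also for 0 (283), and by DESeq2 for 1 gene of all (350), not an axis gene.

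Between P25 and P14, 24 of 52 axis genes (46.2%) passed, close to the 46.3% of all genes tested. Of the 52, 4 rose (Igf1r, Crhr1, Lhx3 and Chgb), where 22.4% of all genes did, and 20 fell, where 23.9% of all genes did. Adjusted p by limma ran from 0.00033 for Igf1 to 0.042 for Chgb, and 6 to 12 of the 12 P25 libraries lay on the called side of the P14 median. In 20 of the 24 genes the difference had the same sign in both batches, and in Esr1, Col25a1, Pam and Crhr1 it did not. Col25a1 had 6 of the 12 P25 libraries on the called side. Six3, Lhx3 and Chgb did not pass in 11, 14 and 16 of the 24 fits that left out a library. Of 6 tested hypothalamic factors, 5 fell: Crh (a log2 difference of -2.77, SE 0.56), Trh (-2.72, SE 0.67), Tac2 (-2.72, SE 0.69), Sst (-2.46, SE 0.57) and Adcyap1 (-0.96, SE 0.21). The receptors Trhr and Sstr2 fell, as did the pituitary factors Six3 and Neurod4 and the granule genes Chga and Vgf. Esr1 (0.02 in the first batch and -2.96 in the second), Col25a1 (0.12 and -2.83) and Pam (0.15 and -1.78) fell in the fit over both batches, and Crhr1 (-0.11 and 1.31) rose in it. Of 10 tested hormone targets 6 fell: Igf1 (-1.19, SE 0.21), Igfbp3, Socs2, Tshr (-1.61, SE 0.33), Ghr and Dio2. Neither this short list nor the hypothalamic one was tested as a set, and 23.9% of all genes fell.

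The age counts also differed between batches. In the first batch alone 3 axis genes passed, Igf1, Igfbp3 and Socs2, and in the second 25, of which 20 were among the 24, and 14 passed with no batch term. The Crh difference was -0.32 in the first batch and -5.22 in the second, and that of Sst was -0.25 and -4.67, and whether the batches differ was not tested. In the second batch, Cbln3 was at 54064 to 61110 in P25 WT replicates 4 to 6 and P25 KO replicates 5 and 6. It was at 29.9 in P25 KO replicate 4 and at 18.3 to 51.8 in the P14 libraries. Age and regional makeup thus largely went together in that batch. Cortex and hippocampus markers (5 genes) summed to 387 to 14837 in P14 WT, 664 to 15826 in P14 KO, 209 to 8909 in P25 WT and 231 to 11541 in P25 KO, and the cerebellar sums above lay higher at P25, and their part in the age differences was not tested.

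**Figure D5:**
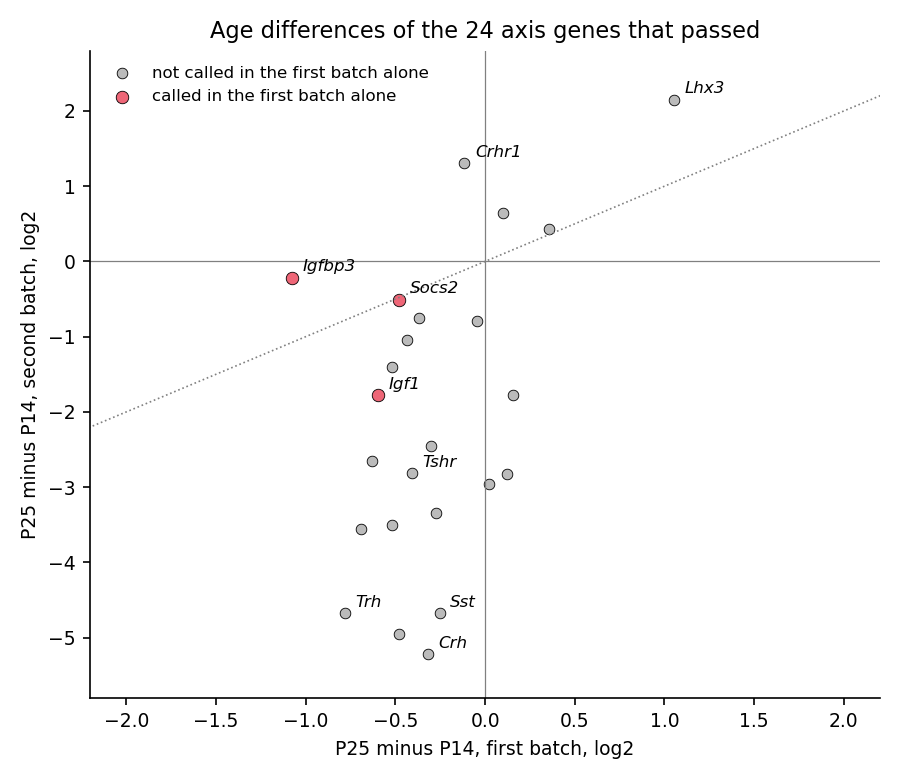
P25 minus P14 on the log2(value + 1) scale in the first batch (horizontal axis) and in the second batch (vertical axis) for the 24 axis genes that passed, where the dotted line marks equal differences. Only Igf1, Igfbp3 and Socs2 passed in the first batch alone, and Crh, Sst and Trh lie far lower in the second batch than in the first.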

How the data were processed

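RNA from 24 mouse brain samples, 4 groups of 6, was sequenced after preparation with an Illumina TruSeq RNA kit, version 2, per the labels' protocols. The submitters' processing notes name Trimmomatic 0.35, TopHat2 2.1.0, HTSeq, DESeq2 and build GRCm38. The annotation release, counting mode and strand setting were not given in the sources used here. A single deposited table holds a signal per gene, which the values show to be reads divided by 1 size factor per library (0.825 to 1.223): 100% of nonzero values came out as whole reads within 0.01. Of 46078 identifiers, 45143 matched a symbol in GENCODE M21.

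Here limma 3.58.1 (R 4.3.3) was fitted to log2(value + 1) of the 18267 genes that averaged at least 10, with 4 group means, a batch term within each age, 18 residual degrees of freedom and Benjamini-Hochberg adjustment at 0.05. Adding 1 makes fold changes of low genes look smaller than they are. SEs of the 8 genes are each gene's own. The plan allowed for raw counts. Alternatives were edgeR 4.0.16 and DESeq2 1.42.0 on the recovered reads, TMM scaling, other pseudocounts (0.1 and 5) and filters, other batch handling, a replicate block and leaving out each library. The script was tested on simulated data. Intervals and limits cover counting error only. Levels per kilobase use the union of a gene's exons.

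The 8 genes, the axis and marker lists and the tests were chosen with earlier results of these data known. The named anterior pituitary markers were summed after seeing the data, and a few single genes are not reported here. Named otherwise were all 8 genes, axis genes that passed or were highest in the library with most Gh (up to 4 per list), the 20 genes that exceeded all other libraries by most there, and the 10 genes most like the set's mean log2 level with and without it.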

Additional observations from a re-analysis of the deposited data

Results flagged for a closer look

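The highest or lowest library of each group was set against its group by the cut-off of Dixon's gap test, as a description only. This was done for the 8 pituitary genes, Tspan2 and the axis genes that were highest in P25 WT replicate 3. Of 56 gene and group pairs with any spread, 29 had a library that stood apart. Chance flags about 1 in 20 groups, but that rate does not apply to these counts, since the genes were chosen for their levels in these libraries and the same libraries recur. Where all other libraries of a group were at 0, a flag was fixed in advance. There 1 read was enough, as for Cga in P14 KO replicate 1.

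P25 WT replicate 3 stood apart for 10 genes, which had either chosen the library or been picked as highest in it, so these values are a description: Gh at 72844.8 normalised reads, Prl at 3576.4, Cga at 1109.2, Fshb at 452.1, Pou1f1 at 195.3, Ghrhr at 113.2, Pomc at 13130.5, Tbx19 at 94.5, Six6 at 59.7 and Gnrhr at 42.8. The highest other value in P25 WT was 9.81 for Gh, 45.0 for Pomc, 8.61 for Pou1f1 and 1.70 for Tbx19. Tshb, with 316.5 normalised reads in that library, did not stand apart in P25 WT.

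P14 KO replicate 1 stood apart for 7 genes: Tshb at 171.5, Tspan2 at 14182.7, Lhx3 at 26, Scn7a at 132.4, Six6 at 15.2, Gnrhr at 4.3 (4 reads) and Cga at 1.1 (1 read). P14 WT replicate 3 stood apart for Tshb at 176.4, Tspan2 at 17973.2 and Lhx3 at 23.6. In P25 KO, replicate 2 stood apart for Gh at 47.6, Prl at 1.8 (2 reads) and Cga at 0.9 (1 read), and replicate 1 for Pomc at 99.7 and Tbx19 at 7 (6 reads). The remaining flags were Six6 at 14.6 and Cga at 4.5 (4 reads) in P14 WT replicate 1, Gnrhr at 3.4 (3 reads) in P14 WT replicate 2 and Gh at 6.1 (7 reads) in P14 WT replicate 5.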

How the results depend on the processing

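The counts of axis genes that passed between genotypes, 0 at P14, 0 at P25 and 0 for the change of the KO effect, were 0 under every alternative run, including both count models and all 24 fits that left out a library (0 to 0). For P25 against P14 the count of 24 ranged from 19 (edgeR, 7 higher and 12 lower) to 26 (pseudocount 0.1) except with no batch term, where it was 14, and in the first batch alone, where it was 3. Leaving out each library gave 21 to 35. With the replicate number as a replicate block in place of the batch, 0 axis genes passed at P14, 0 at P25 and 0 for the change between ages; WT and KO libraries of the same age and number also share the start of their sample name, but the labels do not say what it marks, and the correlations of their deviations ran from -0.70 to 0.70, so a pairing was not established.

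Differences of the 7 detected genes had another sign than reported in 39 of 250 values under the alternatives at P14, 11 of 250 at P25 and 18 of 236 between ages. Without P25 WT replicate 3 the Gh difference at P25 went from -1.63 to 0.97. The count models edgeR and DESeq2 at P25 gave for Prl -10.23 and -10.95, for Cga -9.16 and -10.24, for Fshb -9.06 and -23.34 and for Pou1f1 -2.93 and -2.77. With most libraries at 0 such values depend on the model. Group means scaled by total reads in place of the deposited scaling moved by less than 1 SD, an SD that in P25 WT holds replicate 3. Depth limits Prl, Cga and Ghrhr outside P25 WT replicate 3, where no library had more than 6 reads of any of them.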

Other observations

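Markers of brain regions and of other tissues were read in P25 WT replicate 3 as summed normalised reads, with the rank of that library among the 24. The choroid plexus list (8 genes, 5536, rank 13), striatum (5 genes, 2374, rank 20), olfactory bulb (6 genes, 1008, rank 19), pineal gland (4 genes, 44.6, rank 18, with Asmt and Crx at 0), retina (4 genes, 55.3, rank 5), meninges and vessels (7 genes, 8549, rank 7), blood (8 genes, 8562, rank 7), peripheral nerve and sensory ganglion (7 genes, 1710, rank 5), skeletal muscle (5 genes, 223, rank 15) and cartilage and bone (5 genes, 542, rank 9) did not have their highest sum there. Neither did the cerebellar list (11065, rank 9) or the cortex and hippocampus list (4332, rank 13). P14 WT replicate 5, which held 7 Gh reads, had the highest sums for meninges and vessels (257771), cartilage and bone (9535) and olfactory bulb (60343).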
